A study of Mus musculus with 686 samples.

Results

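The hearts of mice that flew to the International Space Station and came back alive were compared with the hearts of mice kept on Earth. They were taken as all heart libraries whose names carry the live return (LAR) collection, 22 of the 686 small RNA libraries of the series. The flight group (FL) held 6 mice that spent 39.5 days on the station and were dissected 2 to 4 days after return, following functional assays. The habitat ground controls (HGC), 6 mice, were kept on the ground in flight hardware under matched conditions. The vivarium ground controls (VGC), 10 mice, lived in standard cages. All 22 were female BALB/cAnNTac mice of 3 or 8 months without genetic modification, 3 of each age in FL and in HGC and 5 of each age in VGC. All LAR mice were bled through the heart before dissection, and the organs were frozen soon after. Mice of different groups share numbers but were different animals. Flight and return were never separated in these hearts, so spaceflight, landing and the days on the ground cannot be told apart within them.

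MicroRNAs (miRNAs) are short RNAs that lower the output of messenger RNAs, which they recognise mainly through bases 2 to 8 from their 5′ end, the seed. Heart muscle carries a characteristic set, the myomiRs. miR-208a and miR-208b lie in introns of the genes for alpha and beta myosin heavy chain, the fast motor protein of the adult mouse ventricle and the slow one of the fetal or stressed ventricle, and miR-499 lies in an intron of a further myosin gene. miR-1 and miR-133 are shared with skeletal muscle. Outside the muscle cells, miR-126 marks endothelium, miR-143 and miR-145 smooth muscle, miR-451a and miR-144 red blood cells, and miR-142 and miR-223 white blood cells.

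The mature sequences of the miRNAs that carry the comparisons below were read from RefSeq (annotation of GRCm38.p6) and are written 5′ to 3′ with the seed in capitals. The myosin-hosted miRNAs are shown first. miR-208a-3p and miR-208b-3p differ at 3 of 22 positions and at 0 positions of the seed, so a sequencing read tells them apart but their seed does not.
miR-208a-3p: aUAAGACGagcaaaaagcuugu
miR-208b-3p: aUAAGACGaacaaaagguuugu
miR-499-5p: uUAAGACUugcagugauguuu

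miR-132-3p and miR-212-3p are made from 1 locus and share a seed, and their mature sequences differ at 5 of 22 positions. They are shown because their levels moved apart.
miR-132-3p: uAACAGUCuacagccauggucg
miR-212-3p: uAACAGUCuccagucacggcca

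The miR-17/92 and miR-15 families are shown by seed, while the counts below are over each family's whole list, in which seeds are pooled. The first seed group has miR-17-5p, with miR-93-5p and miR-20a-5p beside it. The next has miR-25-3p and miR-92a-3p, and the last has miR-15a-5p and miR-15b-5p. miR-17-5p differs from miR-20a-5p at 2 of 23 positions.
miR-17-5p: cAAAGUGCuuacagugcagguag
miR-20a-5p: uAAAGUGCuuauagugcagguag
miR-93-5p: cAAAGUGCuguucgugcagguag
miR-25-3p: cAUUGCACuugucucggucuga
miR-92a-3p: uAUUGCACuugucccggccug
miR-15a-5p: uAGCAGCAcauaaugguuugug
miR-15b-5p: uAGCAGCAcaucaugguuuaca

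The red cell pair and miR-30c-2-3p, the minor strand of a miR-30 precursor, complete the set. No sequence is shown for miR-1a, miR-133a or the smooth muscle miRNAs.
miR-144-5p: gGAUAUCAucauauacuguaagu
miR-451a: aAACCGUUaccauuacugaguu
miR-30c-2-3p: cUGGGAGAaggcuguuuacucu

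The 22 libraries held 26.05 to 100.8 M counts (M stands for 1000000) over 7 RNA classes, 3.81 to 14.9 M of them on miRNAs, and 528 to 831 miRNAs reached 5 counts. Levels below are CPM, counts scaled so that the miRNAs of a library add up to 1000000, or so that the features of a class do for other RNAs. The label was checked against miR-208a-3p and miR-499-5p and against the whole profile of 730 miRNAs that vary between tissues. In 17 libraries the profile was closest to that of the heart (Pearson's r across miRNAs 0.843 to 0.954), miR-208a-3p lay between 306 and 1939 CPM and miR-499-5p between 768 and 2667. The other 5 libraries were closest to another tissue. FL 13 was closest to diaphragm (r = 0.917, against 0.584 for heart) and had 2.06 CPM of miR-208a-3p. HGC 8 was closest to lung (0.968, against 0.0428) with 17.2. VGC 9 was closest to kidney (0.936, against −0.315) with 0.230, and VGC 13 to brain (0.612, against −0.0725) with 160. VGC 20 stood between kidney (0.270) and heart (0.265) with 385. These 5, and none of the other 17, came from 3 blocks of sequencing pools. The main results are given with all 22 libraries and with the 17 (5 FL, 5 HGC and 7 VGC).

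**Figure D1:**
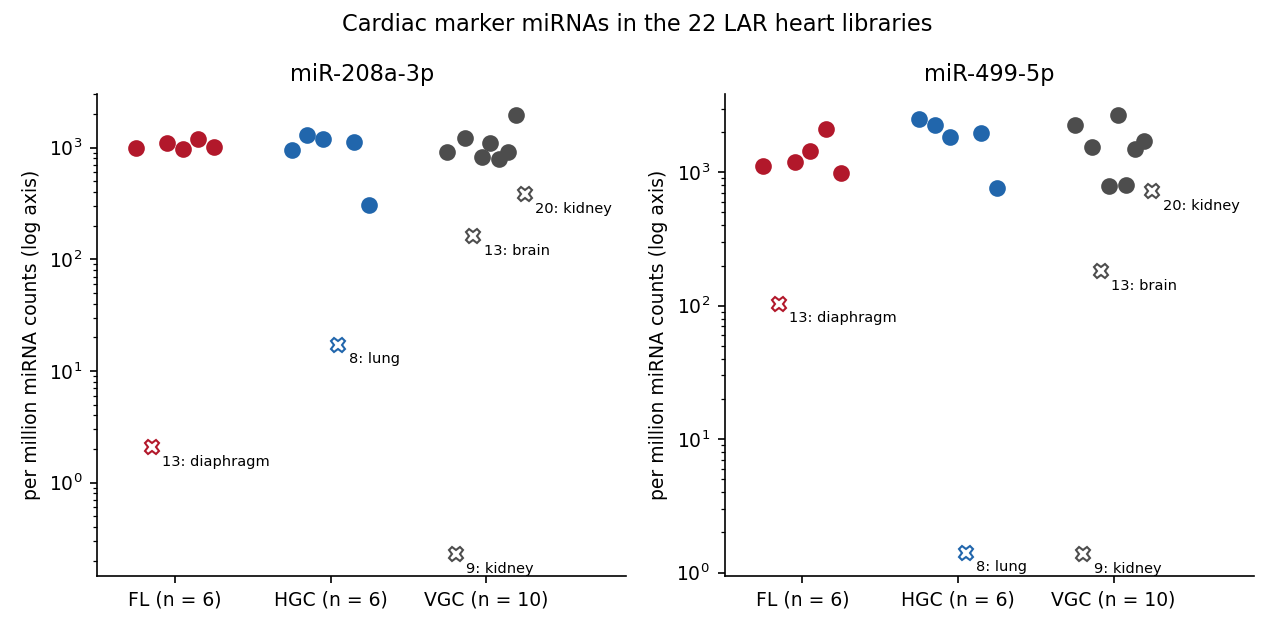
Levels of miR-208a-3p (left) and miR-499-5p (right) in CPM of miRNAs on log axes, 1 point per library, in FL, HGC and VGC. Filled circles are the 17 libraries with a heart profile. Open crosses are the 5 libraries closest to another tissue, named beside each, and in miR-208a-3p all but VGC 20 lie below every filled circle.

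The main question was which RNAs the flown hearts held at another level than either ground control. Both comparisons use the same FL libraries, so FL vs. HGC and FL vs. VGC are not independent, and their values are given side by side. With all 22 libraries edgeR called 0 of 699 miRNAs in either comparison at an adjusted p under 0.05 (0% called). At an unadjusted p under 0.05 there were 109 in FL vs. HGC (15.6%) and 105 in FL vs. VGC (15.0%). DESeq2 called 11 and 25, and the Wilcoxon test called 0 and 0. Against HGC a call by the Wilcoxon test needs many miRNAs at the smallest p that 6 against 6 allow. With the 17 heart-like libraries edgeR called 3 of 641 miRNAs in each comparison, which is 0.468% of those tested, and all were higher in FL. Against HGC these were miR-132-3p, miR-208b-3p and miR-7075-3p. Against VGC they were miR-132-3p, miR-7075-3p and miR-874-3p. Unadjusted, 118 passed against HGC (18.4%), 59 higher in FL (9.2%) and 59 lower (9.2%). Against VGC 36 passed (5.62%), 22 higher (3.43%) and 14 lower (2.18%).

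Several of the miRNAs with the smallest p in the 22 libraries had far smaller differences without the 5 libraries closest to another tissue. Whether those 5 hold exchanged or mixed tissue was not tested. miR-206-3p, the miRNA of skeletal muscle, was at 23760 CPM in FL 13 and at 10.0 to 34.1 in the other FL hearts. Its log2 fold change against HGC was 7.94 with 22 libraries and −0.06 (SE 0.73) with 17. Against VGC it was 3.90 with 22 and −2.03 (edgeR adjusted p = 0.801) with 17. In those 17 the summed skeletal muscle miRNAs were at 209 CPM in VGC 12 and 183 in VGC 16, beside 5.99 to 33.7 in the other VGC hearts. Liver miRNAs summed to 1736 in VGC 12 and 4314 in VGC 16, beside 26.4 to 199 in those others. miR-34c-5p, an miRNA of ciliated epithelium, was at 855 in HGC 8 and at 7.97 to 20.4 in the other HGC hearts, and its difference fell from −3.72 to −0.56 (SE 0.42). In VGC 13 the neuronal miR-124-3p was at 34280, and in VGC 9 the kidney and gut miRNA miR-192-5p was at 40280. Their differences from VGC went from −5.13 to −0.95 (SE 0.60) and from −3.22 to −0.04 (SE 0.31). None of these 4 passed the adjusted threshold in either set of libraries.

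Neither marker of the adult ventricle was called between FL and a control group. miR-208a-3p in FL was 995 CPM in mouse 5, 1090 in mouse 17, 962 in mouse 8, 1186 in mouse 12 and 1009 in mouse 16. In HGC it was 959, 1285, 1191, 1130 and 306 in mice 5, 13, 17, 12 and 16. In VGC it ran from 782 to 1939 with a median of 919. The groups overlapped, and the log2 fold change was 0.30 (SE 0.27, edgeR adjusted p = 0.630) against HGC and 0.10 (SE 0.25, adjusted p = 0.998) against VGC. miR-499-5p had medians of 1187 CPM in FL, 1969 in HGC and 1548 in VGC with overlapping ranges. In 4 of 5 FL hearts it was at 982 to 1440, below 4 of 5 HGC hearts at 1829 to 2487, while FL 12 held 2123 and HGC 16 held 768. Its differences were −0.29 (SE 0.30) and −0.09 (SE 0.28). Without HGC 16 the differences from HGC were 0.10 (SE 0.22) for miR-208a-3p and −0.44 (SE 0.29, adjusted p = 0.497) for miR-499-5p. With 22 libraries the differences of miR-208a-3p were 0.28 (SE 1.07) and 0.25.

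miR-208b-3p, the miRNA of the slow myosin gene, was called higher in FL than in HGC, and its difference from VGC was not called. FL held 84.2 CPM in mouse 5, 91.5 in mouse 17, 69.1 in mouse 8, 146 in mouse 12 and 95.7 in mouse 16. HGC held 33.8, 61.0, 43.2, 59.1 and 32.8 in mice 5, 13, 17, 12 and 16, so that every FL heart lay above every HGC heart. VGC ran from 97.0 to 152 with a median of 110 and overlapped FL. The log2 fold change was 1.21 (SE 0.24, edgeR adjusted p = 0.0139) against HGC and −0.11 (SE 0.22, adjusted p = 0.990) against VGC. Each of the 17 libraries was left out in turn, and the call against HGC was kept in 15 of 17 fits and lost without HGC 5 or HGC 17 (log2 1.10 to 1.29, highest adjusted p = 0.0744). With 22 libraries it was 1.11 (SE 0.73, adjusted p = 0.506). miR-208b-3p, miR-132-3p and miR-874-3p, and likewise miR-30c-2-3p, miR-144-5p, miR-214-3p, Snora44, Gm26447 and oocyte_piRNA1459 below, were chosen after their values were seen.

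Of the 10 cardiomyocyte miRNAs listed, 9 passed the filter on low counts and miR-208b-5p did not. Only miR-208b-3p was called against HGC, and 8 of 9 had a positive difference. Their median log2 fold change was 0.30 against HGC, beside −0.02 over all 641 miRNAs, and 0.15 against VGC, beside 0.01. Without HGC 16 the median against HGC was 0.12, beside 0.03, with 7 of 9 positive. miR-133a-3p had a median of 281700 CPM in FL, 201900 in HGC and 232300 in VGC, and it differed from HGC by 0.48 (SE 0.24, adjusted p = 0.272). miR-1a-3p was at 56400, 51150 and 52190, and it differed by 0.36 (SE 0.25). The summed level of the list overlapped between groups, at 320800 to 427100 in FL, 203400 to 387000 in HGC and 212900 to 365800 in VGC. In whole tissue, fewer cells of a type and less RNA per cell cannot be told apart.

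miR-132-3p, which is known for a role in cardiac hypertrophy and in neurons, gave the largest difference in the 17 libraries. FL held 180 CPM in mouse 5, 100 in mouse 8, 147 in mouse 12 and 132 in mouse 16, but 4.77 in mouse 17. HGC held 1.92 to 4.24 with a median of 2.80, and VGC held 0.631 to 3.91 with a median of 2.05. The FL hearts thus lay above both controls, mouse 17 only just. The log2 fold change was 5.35 (SE 0.66, edgeR adjusted p = 2.99e-05) against HGC and 5.77 (SE 0.59, adjusted p = 1.19e-06) against VGC, and each was called in 17 of 17 fits with a library left out. Its partners from the same locus did not pass. miR-212-3p was at 14.0 to 27.7 in FL and 11.6 to 16.6 in HGC (log2 0.58, SE 0.27, adjusted p = 0.256). miR-132-5p, the other strand, was at 0.383 to 1.43 in FL and 1.28 to 2.27 in HGC (−0.78, SE 0.39, adjusted p = 0.275). Of the 4 miRNAs of this list 3 were tested. With 22 libraries the differences of miR-132-3p were 5.17 against HGC (adjusted p = 0.236) and −1.10 against VGC (adjusted p = 0.804). VGC 13, with the brain profile, held 4557 there, VGC 9 held 210 and VGC 20 held 159, and leaving out any 1 of the 22 gave −1.36 to 2.05 against VGC.

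The level of miR-132-3p went with the sequencing pool across the whole study. The study's sample list places the 686 libraries in 44 pools. In libraries of tissues other than heart, 14 pools had a median miR-132-3p of 21.1 to 221 CPM (205 libraries), and 30 pools had 1.80 to 7.67 (431 libraries). In the 14 pools the FL, HGC and VGC libraries of other tissues had medians of 102, 65.3 and 87.6, and in the 30 pools 3.53, 3.35 and 3.34. The pools were split by these same libraries. Single libraries overlapped, at 0.475 to 8152 in the 14 pools and 0 to 1368 in the 30. Of the hearts with a heart profile, 4 of 5 FL mice (5, 8, 12 and 16) were in the 14 pools, and 0 of 5 HGC and 0 of 7 VGC were. FL 17, the flown heart outside them, was the FL heart at 4.77. In hearts of the other collection, whose mice were killed on the station or at the matching time on Earth (TERM), those in the 14 pools held 12.5 to 78.6 in FL (n = 2), 111 to 115 in HGC (n = 2) and 11.8 to 112 in VGC (n = 4). TERM hearts in the other pools held 1.32 to 3.10 in FL (n = 4), 1.16 to 8.64 in HGC (n = 6) and 0.299 to 131 in VGC (n = 5). With the pool set as a term the difference of miR-132-3p in the 17 libraries was 0.80 (SE 0.65, edgeR adjusted p = 0.745) against HGC and 1.22 (SE 0.63, adjusted p = 0.828) against VGC. Here that term compares FL 17 alone with the controls. The pool set was chosen after these values were seen, and among these hearts flight and pool set cannot be told apart.

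**Figure D2:**
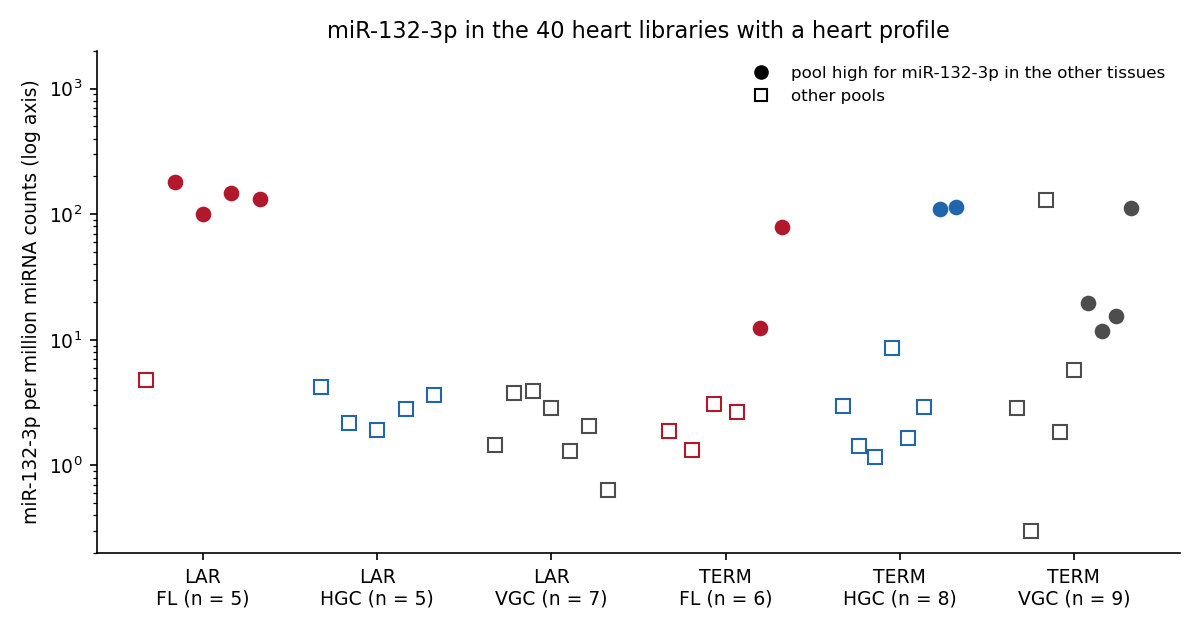
Level of miR-132-3p in CPM of miRNAs on a log axis in the 40 heart libraries with a heart profile, by collection (LAR or TERM) and group. Filled circles are libraries of the 14 pools that were high in other tissues and open squares those of the other pools. Filled circles lie at 11.8 or above in every group that has them, and open squares at 8.64 or below apart from 1 VGC heart of TERM at 131.

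The other called miRNAs were less abundant. miR-7075-3p held 0 to 9.59 CPM in FL with a median of 5.57, 0 to 0.541 in HGC and 0 to 0.788 in VGC, and it was at 0 in FL 17. Its fitted log2 fold change was 3.82 (SE 0.83, edgeR adjusted p = 0.0306) against HGC and 3.87 (SE 0.77, adjusted p = 0.0168) against VGC, and with counts this low these depend on the fit. It was called in 13 of 17 left-out fits in each comparison, with the call lost in both without FL 5 or FL 16, against HGC without HGC 5 or HGC 17, and against VGC without VGC 5 or VGC 19. miR-874-3p held 14.5 to 38.3 CPM in FL, with FL 17 the lowest, 5.60 to 19.5 in HGC and 6.15 to 14.9 in VGC. It differed from VGC by 1.24 (SE 0.27, adjusted p = 0.0264) and from HGC by 0.92 (SE 0.29, adjusted p = 0.140), and it was called against VGC in 8 of 17 left-out fits, lost without FL 5, FL 8, FL 12, FL 16, HGC 12, VGC 5, VGC 16, VGC 17 or VGC 19. Its difference from VGC was 0.47 (adjusted p = 0.976) once the pool set was a term. In the 40 hearts miR-132-3p, miR-7075-3p and miR-874-3p were among the 8 of 741 miRNAs (1.08%) that were higher in the 14 pools at an adjusted p under 0.05, by 3.52, 3.47 and 0.73. miR-208b-3p was not among the 8. Its difference from HGC with the pool set as a term was 1.15 (SE 0.38, adjusted p = 0.347) in the 17 libraries and 1.23 (SE 0.34, adjusted p = 0.0572) in the 40 hearts.

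Members of the miR-17/92 family, known for driving proliferation and for high levels in blood-forming cells, had negative fitted differences from HGC that did not pass the adjusted threshold of edgeR in the 17 libraries and mostly shrank without HGC 16. miR-20a-5p was 208 CPM in mouse 5, 228 in mouse 17, 202 in mouse 8, 288 in mouse 12 and 110 in mouse 16 of FL. In HGC it was 585, 322, 392, 215 and 1832 in mice 5, 13, 17, 12 and 16, and VGC ran from 197 to 432. The log2 fold change against HGC was −1.75 (SE 0.48, edgeR adjusted p = 0.127), and −0.67 (SE 0.29, adjusted p = 0.273) without HGC 16. miR-25-3p ran from 177 to 653 in FL and from 435 to 4020 in HGC, where HGC 16 was the highest. It differed by −1.95 (SE 0.54, adjusted p = 0.127), and by −0.53 (SE 0.28, adjusted p = 0.359) without HGC 16. miR-17-5p ran from 221 to 553 in FL and from 504 to 2280 in HGC, a difference of −1.47 (SE 0.42, adjusted p = 0.127), or −0.56 (SE 0.25) without HGC 16. miR-92a-3p, with a negative fitted value of −0.21, had the higher median in FL (1189, against 763 in HGC), and HGC 16 held 3251. Without HGC 16 the fitted difference was positive in 2 of the 12, miR-92a-3p and miR-363-3p. None of the 12 tested of 13 members was called against HGC by edgeR in the 17 libraries, while DESeq2 called miR-20a-5p (adjusted p = 0.0200) and gave no adjusted p for 4 others, miR-17-5p, miR-25-3p, miR-93-5p and miR-106b-5p. In the edgeR fit of the 40 hearts miR-17-5p (−1.45), miR-20a-5p (−1.73), miR-25-3p (−1.91) and miR-93-5p (−1.62) were called. With the pool set as a term their differences were of like size (−1.51, −1.70, −1.84 and −1.76) and their adjusted p ran from 0.0572 to 0.0719. In that fit 8 of 13 members were negative and 5 positive, with a median of −0.43. In the 17 libraries 7 of 12 were lower at an unadjusted p under 0.05 (9.2% of all miRNAs were), and 12 of 12 were negative with a median of −1.10. Without HGC 16, 3 were lower and 1 higher unadjusted, and the share over all miRNAs in that fit is not given. There 10 of 12 were negative and the median was −0.41, beside 0.03 over all miRNAs. Against VGC 3 of 12 were lower unadjusted (2.18% of all miRNAs were) and the median was −0.31.

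The miR-15 family, which restrains the cell cycle in the heart after birth, also had negative differences that shrank without HGC 16. miR-15a-5p ran from 640 to 1512 CPM in FL and from 1221 to 5706 in HGC, a difference of −1.38 (SE 0.40, edgeR adjusted p = 0.127), and of −0.60 (SE 0.26, adjusted p = 0.275) without HGC 16. miR-15b-3p had the smallest p of all miRNAs in the 22 libraries. It ran from 12.5 to 31.3 in FL and from 30.1 to 417 in HGC, and differed by −2.58 (SE 0.66, adjusted p = 0.114), or by −0.91 (SE 0.38) without HGC 16. DESeq2 called it in the 17 libraries (adjusted p = 0.00278), and edgeR in the 40 hearts (−2.54, adjusted p = 0.0146), where the pool set as a term gave −2.13 (adjusted p = 0.0572). Of the 6 family members listed edgeR called 0 in the 17 libraries, and 3 were lower unadjusted (9.2% of all miRNAs were) with a median of −0.69. Without HGC 16, 2 were lower, for which no share over all miRNAs is given, and the median was −0.23. DESeq2 called miR-15a-5p in the 17 libraries (adjusted p = 0.0419) and gave no adjusted p for miR-15b-5p. In the edgeR fit of the 40 hearts miR-15a-5p (adjusted p = 0.0182) and miR-15b-5p (adjusted p = 0.0421) were called, at −1.36 and −1.81. Adding the pool set as a term gave −1.28 and −1.71 (adjusted p = 0.0654 and 0.123).

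HGC 16 also stood out in miRNAs of red blood cells. miR-451a was at 273700 CPM there and at 38530 to 58000 in the other 4 HGC hearts, against 28850 to 61300 in FL and 23460 to 61590 in VGC. The summed level of the 5 red cell miRNAs was 276700 in HGC 16, beside 29330 to 61830 in FL, and miR-208a-3p was at its lowest there. miR-451a differed by −1.23 (SE 0.50, edgeR adjusted p = 0.208) between FL and HGC, and by 0.03 (SE 0.28) without HGC 16. miR-144-5p was 21.2, 24.2, 39.7, 25.1 and 28.1 in FL mice 5, 17, 8, 12 and 16, and 107, 46.5, 62.8, 38.1 and 282 in HGC mice 5, 13, 17, 12 and 16. It differed by −1.96 (SE 0.53, adjusted p = 0.127), and by −0.96 (SE 0.38, adjusted p = 0.249) without HGC 16. DESeq2 called miR-144-5p (adjusted p = 0.0140) and miR-144-3p (adjusted p = 0.0419) in the 17 libraries. In the 40 hearts edgeR called both (−1.94, adjusted p = 0.0146, and −1.66, adjusted p = 0.0399), and the pool set as a term gave −1.83 (adjusted p = 0.0572) and −1.42 (adjusted p = 0.162). Of the 5 red cell miRNAs 3 were lower unadjusted against HGC in the 17 libraries (9.2% of all miRNAs were) with a median of −1.23. Without HGC 16, 1 was lower, for which no share over all miRNAs is given, and the median was −0.14. The part of blood content in the differences of the miR-17/92 and miR-15 families was not tested.

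**Figure D3:**
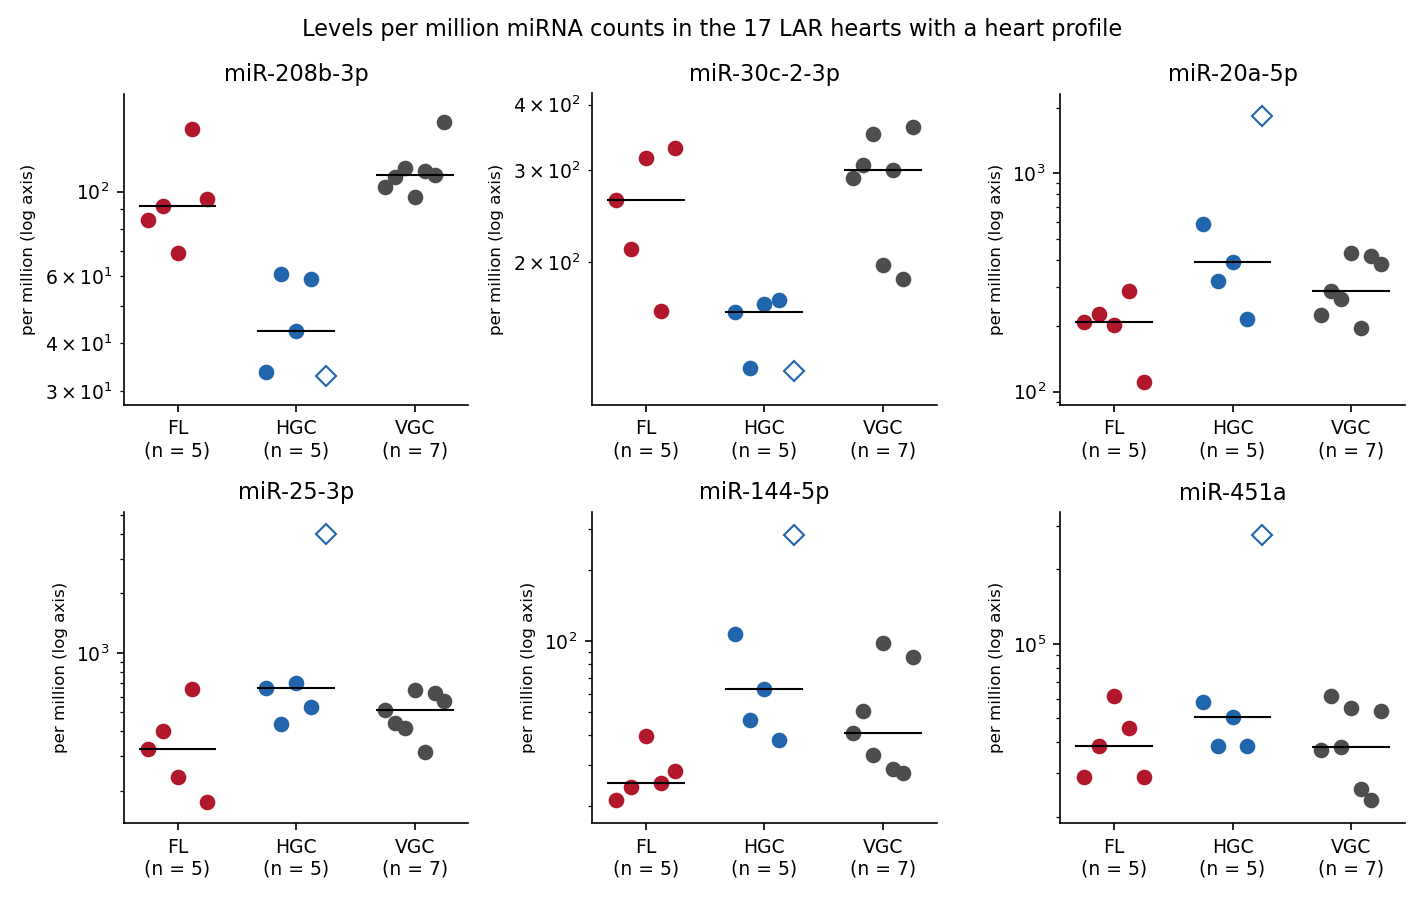
Levels of 6 miRNAs in CPM of miRNAs on log axes in the 17 hearts with a heart profile, 1 point per library and a line at the median of each group. The open diamond is HGC 16. miR-208b-3p separates FL from HGC without it, while in miR-20a-5p, miR-25-3p, miR-144-5p and miR-451a it lies far above the other HGC hearts.

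Further miRNAs had differences from HGC that did not pass the adjusted threshold of edgeR in the 17 libraries. miR-30c-2-3p was at 162 to 330 CPM in FL, 124 to 170 in HGC and 186 to 362 in VGC, and differed from HGC by 0.95 (SE 0.29, edgeR adjusted p = 0.136) and from VGC by 0.02 (SE 0.26). As with miR-208b-3p, the HGC group was low and FL overlapped VGC. miR-1249-3p was at 18.1 to 112 in FL and 12.6 to 43.7 in HGC, with a difference of 1.47 (SE 0.43, adjusted p = 0.127), which DESeq2 called (adjusted p = 0.0419). In the 40 hearts edgeR called miR-30c-2-3p (adjusted p = 0.0293) and not miR-1249-3p (adjusted p = 0.0760). miR-214-3p, a fibroblast miRNA, was at 834 to 1201 in FL and 183 to 1031 in HGC (1.02, SE 0.29, adjusted p = 0.127). Without HGC 16 its difference was 0.82 (SE 0.25, edgeR adjusted p = 0.226). Of the 5 mesenchymal miRNAs listed, which include it, 2 had a positive and 3 a negative difference in the 17 libraries. miR-21a-5p, which is linked to cardiac fibrosis, was at 260 to 982 in FL and 675 to 1242 in HGC (−1.005, SE 0.39, adjusted p = 0.195), and its difference from VGC was −0.16 (SE 0.36). miR-9-5p, known from neurons, was at 74.8 to 101 in FL, below all HGC hearts (127 to 148) and all VGC hearts (103 to 183), with differences of −0.58 (SE 0.24, adjusted p = 0.206) and −0.41 (SE 0.22, adjusted p = 0.922). Groups did not overlap in 5 miRNAs higher in FL than HGC (0.78% of 641) and 6 lower (0.936%). Against VGC they did not overlap in 2 higher (0.312%) and 2 lower (0.312%).

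Counts by list in the 17 libraries, at an unadjusted p under 0.05 against HGC, were as follows. For other cells of the heart, 0 of 3 endothelial miRNAs passed with a median log2 fold change of −0.56, 0 of 4 smooth muscle with −0.13, 1 of 5 mesenchymal (higher) with −0.04 and 2 of 6 fibrosis miRNAs (lower) with −0.37. Of 6 white cell miRNAs 2 were lower with −0.18, miR-142a-3p among them (−1.44, SE 0.48, edgeR adjusted p = 0.141). Without HGC 16, 0 of 6 passed with a median of −0.05, and miR-142a-3p was at −0.76 (SE 0.40). let-7 miRNAs had 1 of 9 higher with a median of 0.54 against HGC and −0.11 against VGC, and 3 of 9 higher with 0.48 against HGC without HGC 16. The miR-30 list had 0 of 5 with 0.25, miR-34 1 of 5 higher with 0.07, hypoxia 0 of 1 with −0.44 (0.011 without HGC 16) and thermogenic fat 0 of 3 with 0.03. Lists of other tissues had 0 of 1 in skeletal muscle, 2 of 7 lower in the epithelial miR-200 list with −0.45, 1 of 6 lower in other epithelial with −0.31 and 2 of 6 lower in neuronal with −0.49. Liver had 1 of 3 lower, kidney and gut 1 of 3 higher, pancreas 1 of 2 lower and the Hox-locus list 0 of 5. Of 27 miRNAs of the imprinted Dlk1-Dio3 cluster 2 were higher and 4 lower with a median of −0.12. Without HGC 16, 1 of 3 endothelial miRNAs was lower with a median of −0.70, the medians of smooth muscle and mesenchymal miRNAs were −0.24 and −0.10, and 1 of 5 fibrosis miRNAs tested was lower with −0.42. The median of the miR-30 list was then 0.083, miR-34 had 2 of 5 higher with 0.22, and thermogenic fat had a median of −0.081. In the lists of other tissues 0 of 7 were then lower in epithelial miR-200 with −0.42, 2 of 6 in other epithelial with −0.28, 1 of 6 in neuronal with −0.43 and 2 of 2 in pancreas. The imprinted cluster then had 1 higher and 5 lower. None of these lists had a call by edgeR after adjustment in either fit. Over all 641 miRNAs of the fit of 17 libraries 9.2% were higher and 9.2% lower at that p. The shares in the fit without HGC 16 are not given, so its counts have no yardstick here.

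The other classes hold fragments of transfer (tRNA), ribosomal (rRNA), small nuclear (snRNA), small nucleolar (snoRNA), PIWI-interacting (piRNA) and long non-coding RNA (lncRNA). In them edgeR called 0 features with 22 libraries (0% in each). Unadjusted, FL vs. HGC and FL vs. VGC had 8 and 37 of 397 tRNAs, 2 and 12 of 203 rRNAs, 149 and 90 of 701 snRNAs, 15 and 227 of 653 snoRNAs, 65 and 45 of 467 piRNAs, and 114 and 111 of 2095 lncRNAs. DESeq2 called 0 and 1 snoRNAs, 3 and 2 piRNAs, 0 and 1 lncRNAs and 0 in the rest, and the Wilcoxon test called 0 in each. With the 17 libraries edgeR called 2 of 685 snRNAs (0.292%) and 2 of 620 snoRNAs (0.323%) against VGC, all higher in FL, and 3 of 430 piRNAs (0.698%) against HGC, all lower in FL. It called 0 in tRNA, rRNA and lncRNA in both comparisons (44 and 17, 6 and 20, and 312 and 76 unadjusted) and DESeq2 also called 0 there. It called 0 snRNAs and snoRNAs against HGC (60 and 59 unadjusted, 3 and 0 by DESeq2) and 0 piRNAs against VGC (16 unadjusted, 1 by DESeq2). Counts of these RNAs come from fragments as short as miRNAs. Copies share reads, and 95.2% of tRNA counts, 80.1% of rRNA counts and 65.8% of snRNA counts lay on features with the same values as another feature, so single copies are uncertain.

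Among the features of these classes that edgeR called in the 17 libraries, only the snRNA gene Gm24407 was called in all 17 left-out fits. It held 1658, 953, 1653, 1336 and 1589 CPM of snRNAs in FL mice 5, 17, 8, 12 and 16, 455 to 644 in HGC and 280 to 855 in VGC, so that FL lay above both controls. It differed from VGC by 1.33 (SE 0.23, edgeR adjusted p = 0.00700), called in 17 of 17 left-out fits, and from HGC by 0.98 (SE 0.26, adjusted p = 0.210). FL 17, outside the 14 pools, was the lowest FL heart, and with the pool set as a term the difference from VGC was 0.62 (SE 0.39, adjusted p = 0.998). The snRNA gene Gm22122 held 26.0 to 187 in FL and 16.7 to 54.9 in VGC, with a difference of 1.80 (SE 0.34, adjusted p = 0.00905), lost without FL 5, FL 8, VGC 16 or VGC 19. It was −0.34 once the pool set was a term. Snora44, a guide for pseudouridylation of other RNAs, held 126 to 182 CPM of snoRNAs in FL, 82.0 to 149 in HGC and 49.5 to 97.7 in VGC. It differed from VGC by 1.19 (SE 0.22, adjusted p = 0.00245), lost only without FL 12 among the 17, and from HGC by 0.86 (SE 0.24, adjusted p = 0.165). Adding the pool set as a term gave 0.61 against VGC (SE 0.37, adjusted p = 0.559). The snoRNA gene Gm26447 differed from VGC by 1.05 (SE 0.23, adjusted p = 0.0150), lost without FL 12, FL 16, VGC 12 or VGC 16. Its difference was 0.48 (SE 0.39, adjusted p = 0.738) once the pool set was added. These 4 had adjusted p of 0.140 to 0.622 against VGC in the 22 libraries. In the 40 hearts the pool set had calls in 55 of 707 snRNAs (7.78%), 49 of them higher in the 14 pools, and in 8 of 679 snoRNAs (1.18%). Gm24407, Gm22122 and Snora44 were among them, higher in the 14 pools by 0.83, 1.36 and 0.70, and Gm26447 was not.

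Among names fixed by rank in the 22 libraries, Snora33 was at 513 to 820 CPM in FL, 409 to 570 in HGC and 409 to 497 in VGC, and differed by 0.69 (SE 0.21, edgeR adjusted p = 0.165) and 0.70 (SE 0.19, adjusted p = 0.130) in the 17. Snord12, a guide for methylation of ribosomal RNA, was at 13100 to 28680 in FL and 10850 to 16170 in HGC (0.93, SE 0.25, adjusted p = 0.165). FL 17, outside the 14 pools, was its lowest FL heart, and the pool set as a term gave 0.018 (SE 0.38, adjusted p = 0.984) in the 17 libraries and 0.27 in the 40 hearts. Rnu7, the U7 RNA that trims histone messages, differed from HGC by −1.21 (SE 0.34, adjusted p = 0.296) in edgeR, and DESeq2 called it in the same libraries (−1.32, adjusted p = 0.0181). Its ranges overlapped there, at 0.00324 to 0.0122% of snRNA counts in FL (median 0.00627%) and 0.00477 to 0.0187% in HGC (median 0.00709%). In lncRNA, C130071C03Rik, which hosts a miR-9 precursor, was at 62.0 to 143 in FL, 130 to 476 in HGC and 91.3 to 257 in VGC (−1.004, SE 0.29, and −0.73, SE 0.27, against the controls).

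The 3 called piRNAs were called in 9, 8 and 7 of 17 left-out fits, and HGC 16 moved their values most. oocyte_piRNA3081 was at 50.5 to 100 CPM of piRNAs in FL and at 103 to 1718 in HGC (median 135). It differed by −3.14 (SE 0.69, edgeR adjusted p = 0.0437), and by −1.06 (adjusted p = 0.382) without HGC 16. piR-1093 was at 107 to 152 in FL and 160 to 1926 in HGC (−2.56, SE 0.60, adjusted p = 0.0469), and by −0.73 (adjusted p = 0.412) without HGC 16. oocyte_piRNA1459 was at 2.43 to 24.2 in FL and 13.6 to 318 in HGC (−3.22, SE 0.78, adjusted p = 0.0469), and by −0.69 (adjusted p = 0.678) without it. HGC 16 was the highest HGC heart in each of the 3. The 3 calls were also lost without FL 5, FL 8, FL 12, FL 16, VGC 8, VGC 12 or VGC 16, those of piR-1093 and oocyte_piRNA1459 without VGC 10, and that of oocyte_piRNA1459 without FL 17. In the 40 hearts with the pool set as a term edgeR called all 3, oocyte_piRNA3081 at −2.72 (adjusted p = 0.00995), piR-1093 at −2.22 (adjusted p = 0.0204) and oocyte_piRNA1459 at −3.80 (adjusted p = 0.00131). That term in the 17 libraries left adjusted p of 0.543 to 0.728, and DESeq2 gave none of the 3 an adjusted p there. piR-113613, named for its calls with that term, went the other way. It held 4.85, 29.8, 2.08, 11.9 and 13.4 CPM in FL mice 5, 17, 8, 12 and 16, 1.23 to 2.87 in HGC and 0 to 8.73 in VGC, so that FL and HGC overlapped. Its difference from HGC was 2.45 (SE 0.69, edgeR adjusted p = 0.0806) in the 17 libraries. The pool set as a term gave 3.87 there, where it compares FL 17 alone with the controls, and 3.26 (edgeR adjusted p = 0.00863) in the 40 hearts. piR-113613 passed the filter in 11 of the 17 left-out fits, and it was not tested without FL 17. These names come from a piRNA database, and short fragments of other RNAs can match them.

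Among tRNA families, given as a share of tRNA counts, Glu-CTC took 48.6 to 62.5% in FL (median 57.9%), 39.4 to 46.8% in HGC and 39.3 to 63.9% in VGC. FL did not overlap HGC but lay within VGC. Val-CAC took 5.97 to 15.3% in FL, 12.7 to 18.3% in HGC and 9.73 to 16.1% in VGC. No test was run on families, and the abundant copy Glu-CTC-1-1 differed from HGC by 0.56 (SE 0.30, edgeR adjusted p = 0.270). 5S rRNA held 71.9 to 74.8% of rRNA counts in FL and 69.7 to 72.8% in HGC.

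The share of each class among all counts was compared by exact two-sided permutation tests, 14 in all. In the 17 libraries lncRNA fragments took 16.4 to 27.3% in FL (median 25.5%), 7.88 to 16.2% in HGC (median 14.4%) and 12.6 to 24.0% in VGC (median 18.5%). FL and HGC did not overlap. The difference was 9.36 percentage points against HGC (exact p = 0.00794, the smallest that 5 against 5 allow, adjusted p = 0.111) and 5.03 points against VGC (exact p = 0.0644). With 22 libraries it was 7.73 points against HGC (exact p = 0.0433, adjusted p = 0.303). The FL hearts of the 14 pools had 16.4 to 25.6% and FL 17 had 27.3%. snRNA fragments took 4.08 to 11.2% in FL and 7.50 to 14.3% in HGC, a difference of −4.11 points (exact p = 0.0476, adjusted p = 0.300), and −4.82 points with 22 libraries (exact p = 0.0216, adjusted p = 0.303). No other class differed at an unadjusted p under 0.05 against HGC in these sets, and HGC 16 had 45.05% tRNA where the other 4 HGC hearts had 10.7 to 16.9%.

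**Figure D4:**
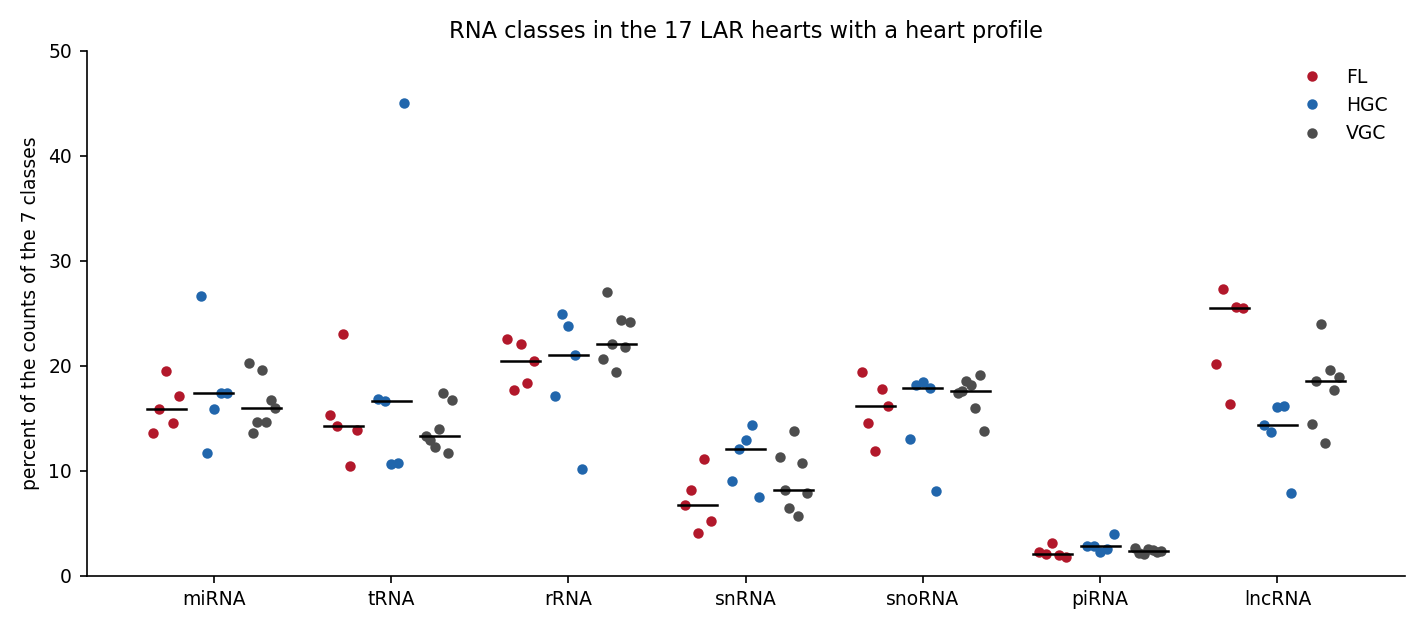
Percent of all counts of the 7 classes that fell on each class in the 17 hearts with a heart profile, 1 point per library, with a line at the median of each group. In lncRNA the 5 FL points (16.4 to 27.3%) lie above the 5 HGC points (7.88 to 16.2%), and HGC 16 stands alone in tRNA at 45.05%.

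Both ages were present in each group, so the flight difference at 8 months was set against that at 3 months. edgeR called 0 of 699 miRNAs for this interaction with 22 libraries (32 at an unadjusted p under 0.05) and 0 of 641 with 17 (48 unadjusted), 0% in each, and DESeq2 called 0 of 675 (44 unadjusted). With 3 FL and 3 HGC mice of each age, or fewer, only large interactions could be seen.

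Hearts of the TERM collection were the nearest comparison. They differ from the LAR hearts in days of flight, in freezing as whole carcasses and in the absence of a return, which cannot be told apart. The test asked whether FL vs. HGC differed between the collections. With all 50 hearts edgeR called 8 of 802 miRNAs (0.998%), 1 higher and 7 lower in LAR, and with the 40 heart-like libraries 14 of 741 (1.89%), 7 in each direction. The TERM hearts among the 40 had r of 0.533 to 0.966 with the heart profile. The lowest was HGC 16 of TERM (thymus 0.386), with FL 12 at 0.732 and VGC 14 at 0.774. No TERM heart was left out in turn. With the pool set as a term 6 of 741 (0.81%) were called. These 6 were miR-30c-2-3p (1.54, SE 0.33, adjusted p = 0.0183), miR-129-1-3p (2.57), miR-129-2-3p (2.20), miR-23a-5p (2.00), miR-25-3p (−2.43) and miR-17-5p (−1.86), as differences of log2 fold changes.

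miR-30c-2-3p was higher in FL than in HGC after live return in the fit of the 40 hearts (0.92, SE 0.23, edgeR adjusted p = 0.0293), a call lost with the pool set as a term (0.98, SE 0.27, adjusted p = 0.0572), and differed by −0.56 (SE 0.20, adjusted p = 0.530) in TERM. In TERM it was at 147 to 219 CPM in FL, 156 to 330 in HGC and 124 to 246 in VGC. The difference of 1.48 between collections in the 40 hearts was called in 9 of 10 fits with an FL or HGC heart of LAR left out. It was lost without FL 16 (adjusted p = 0.0720). miR-25-3p was lower in FL after live return in that fit (−1.91, SE 0.44, adjusted p = 0.0169, or −1.84, SE 0.49, adjusted p = 0.0572 with the pool set as a term) with 0.58 (SE 0.36) in TERM, and the difference was −2.49 (adjusted p = 0.0265), or −1.14 (adjusted p = 0.206) without HGC 16. Without HGC 16 only miR-30c-2-3p of the 14 was called, and without FL 16 there were 0 calls (edgeR, 92 at an unadjusted p under 0.05). miR-208b-3p had a log2 fold change of 0.37 (SE 0.25, adjusted p = 0.836) in TERM, where FL held 39.9 to 181 CPM, HGC 43.6 to 72.5 and VGC 46.3 to 109, and it was not among the miRNAs called as different between collections.

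**Figure D5:**
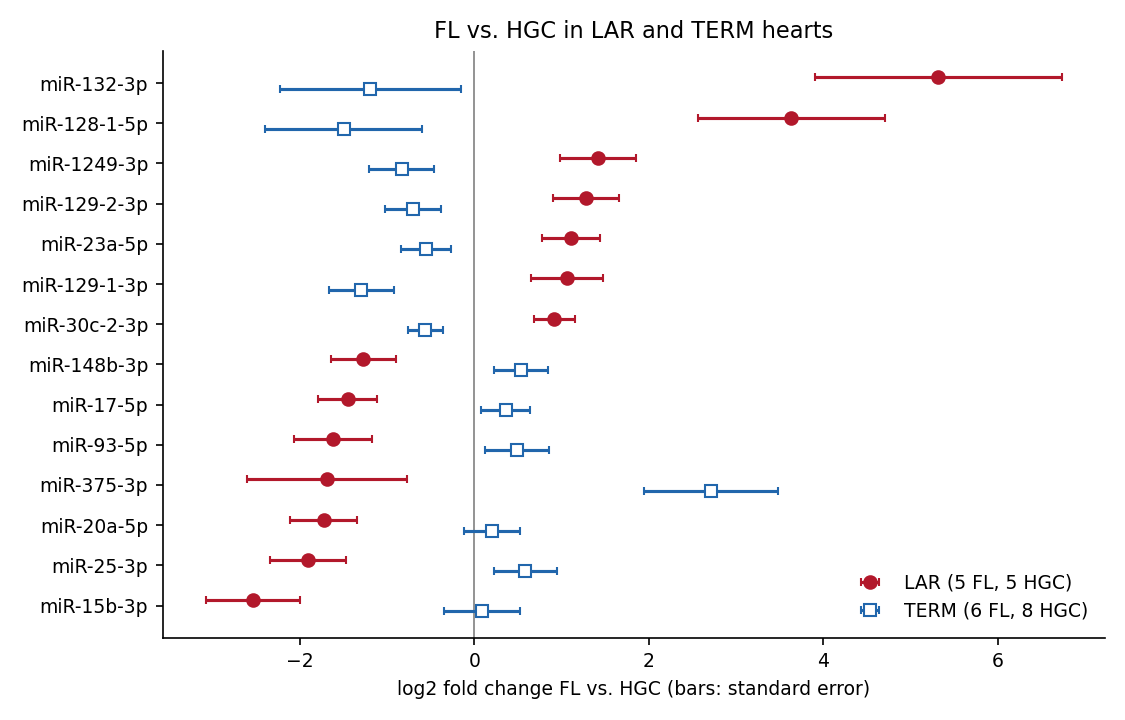
Log2 fold change FL vs. HGC of the 14 miRNAs whose difference between collections was called in the 40 heart-like libraries, in LAR (filled circles, 5 FL and 5 HGC) and in TERM (open squares, 6 FL and 8 HGC), with bars of 1 standard error. miR-132-3p is the highest in LAR (5.32) and miR-15b-3p the lowest (−2.54), and the 14 TERM values have the opposite sign, those of miR-15b-3p and miR-20a-5p within 1 standard error of 0.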

How the data were processed

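Per the study's methods, the authors mapped small RNA reads to GRCm39 and miRBase 22.1 with miRMaster 2.0, and per the labels the build is GRCm39. The deposited miRNA values are estimated counts, which may be fractional and were rounded here. The deposited values of the other 6 classes are whole counts per feature, without normalization. Nothing was trimmed or remapped here, and reads that fit several copies may be counted on each.

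Features with at least 5 counts in at least 6 libraries were tested within each class with edgeR 4.0.16 (R 4.3.3, limma 3.58.1), TMM factors, the 3 groups in 1 quasi-likelihood fit and Benjamini-Hochberg adjusted p under 0.05. DESeq2 1.42.0 was an alternative. The fit had first 22, then 17 libraries. Others used RLE factors, total counts, other filters, age, plate, mouse number, log2(value + 1) with the Wilcoxon test, and a rule of log2 ratio beyond 1 and Cohen's d beyond 0.5. Class shares used exact permutation tests. The scripts were tested on simulated counts.

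Each library is a different mouse. Members, lists and tests were chosen with earlier results of these data known. Named features are the 2 markers, the 12 miRNAs and, in each other class, 4 features with the smallest p in either comparison with 22 libraries, up to 3 abundant members of a list, 2 abundant features of a class, and others chosen after their values were seen. Of 150 listed miRNAs 127 had a RefSeq sequence (GRCm38.p6) and 15 are shown. Pools and plates come from the study's sample list.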

Additional observations from a re-analysis of the deposited data

Results flagged for a closer look

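Groups of 4 to 10 hearts were checked for a sample far from its group (Dixon's criterion, which chance passes in about 1 in 20 groups), and 19 of 114 groups had one. The features checked were chosen partly by their p in these comparisons, and their groups share libraries. That rate, which is for independent groups, is therefore no yardstick for the 19. HGC 16 accounted for 12 of the 19. It held 45.05% of its counts on tRNA and 3.92% on piRNA. In CPM of miRNAs it had 273700 of miR-451a, 5706 of miR-15a-5p, 4020 of miR-25-3p, 2280 of miR-17-5p, 1832 of miR-20a-5p, 417 of miR-15b-3p and 282 of miR-144-5p. In CPM of piRNAs it had 1926 of piR-1093, 1718 of oocyte_piRNA3081 and 318 of oocyte_piRNA1459. What sets HGC 16 apart was not tested. VGC 19 was the highest VGC heart for miR-208a-3p (1939) and miR-208b-3p (152). Single further values were 39.01% rRNA in FL 13, 34.1 of miR-206-3p in FL 17, 2.43 of miR-219a-2-3p in HGC 17, 101 CPM of Rnu7 in VGC 8 and 40.1 of oocyte_piRNA1459 in VGC 16.

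FL vs. HGC differed between the LAR and TERM collections (edgeR, interaction term) in 8 miRNAs over all 50 hearts, as differences of log2 fold changes. They were miR-1249-3p (2.46), miR-141-3p (−6.69), miR-141-5p (−6.73), miR-200c-3p (−5.89), miR-25-3p (−2.02), miR-34b-5p (−4.99), miR-34c-5p (−5.19) and miR-375-3p (−7.85). Over the 40 heart-like libraries miR-1249-3p (2.25), miR-25-3p (−2.49) and miR-375-3p (−4.40) were called again, while the epithelial miR-141, miR-200c and miR-34 members were not. The others called there were miR-128-1-5p (5.13), miR-129-1-3p (2.36), miR-129-2-3p (1.99), miR-132-3p (6.51), miR-148b-3p (−1.80), miR-15b-3p (−2.63), miR-17-5p (−1.81), miR-20a-5p (−1.93), miR-23a-5p (1.67), miR-30c-2-3p (1.48) and miR-93-5p (−2.11). Adding the pool set as a term left 6 calls, named in the report, and without HGC 16 only 1.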

How the results depend on the processing

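Counts of calls at 22 libraries were 0 in every class. Against HGC and VGC in turn, leaving out the 5 libraries with another profile gave 3 and 3 miRNAs, 2 snRNAs and 2 snoRNAs (VGC) and 3 piRNAs (HGC), and robust dispersion kept the counts of miRNAs, snRNAs and snoRNAs but gave 0 piRNAs. DESeq2 called 11 and 25 miRNAs, 1 snoRNA and 1 lncRNA (VGC), and 3 and 2 piRNAs with 22 libraries, and 10 and 3 miRNAs, 3 and 3 snRNAs, 2 snoRNAs (VGC) and 3 and 1 piRNAs with 17, none of them among the 3 piRNAs edgeR called, which it gave no adjusted p. The study's cut-offs of log2 ratio and effect size passed 26 and 12 miRNAs, 19 and 1 snRNAs, 4 snoRNAs (HGC), 6 and 7 piRNAs and 80 and 1 lncRNAs. They were used on all 22 libraries, with the filter used here and total counts as library size. Log2 ratio and effect size also had to share a sign, so these are not the study's own counts. No filter gave 1 rRNA (HGC), 6 and 5 piRNAs and 8 and 40 lncRNAs, the study's filter 1 rRNA and 1 piRNA (HGC), and plate as a term 1 snRNA (VGC). The remaining alternatives were chosen after seeing the data. The pool set as a term in the 17 libraries gave 1 piRNA (HGC), piR-113613. All 40 hearts in 1 fit gave 13 and 1 miRNAs and 6 piRNAs (HGC), and with the pool set 1 snoRNA and 5 piRNAs (HGC). The difference between collections had 8 calls, 35 by DESeq2, 14 and 11 without the other profiles or without the pool blocks (TERM included), and 6 with the pool set. The cause of these changes was not tested.

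Leaving out or averaging otherwise turned the sign of shares that did not pass. In percentage points, the miRNA share against VGC went from 0.428 to −0.337 with the 17 libraries and −0.197 with tRNAs left out of the total, and rRNA against VGC from 2.30 to −2.60 with the 17 and −0.00581 by medians. The tRNA share went from −4.27 to 1.35 against VGC with the 17 and from −2.80 to 0.148 against HGC by medians. The snoRNA share against HGC went from −0.500 to 0.830 with the 17, and piRNA against VGC from 0.0104 to −0.0965 with the 17, −0.102 by medians and −0.145 with tRNAs left out.

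The same mouse numbers belong to different animals. Correlations of same-numbered deviations were taken over the 22 libraries, 5 of them with another profile, and were not all over 0.1. That bar cannot decide whether the numbers pair animals in any other way. The correlations were over 0.1 in 1 of 6 pairs of FL and HGC (4 of 30 other pairs), 3 of 6 of FL and VGC (13 of 54) and 3 of 6 of HGC and VGC (25 of 54), with medians of −0.0354, 0.0373 and 0.0444. The mouse number as a replicate block gave 0 calls in either comparison, as without it, and log2 fold changes of −0.10 for miR-208a-3p against HGC and 4.31 and 0.76 for miR-132-3p and miR-874-3p against VGC, which differ in sign from the fit of 22 libraries without the replicate block (0.28, −1.10 and −0.28).

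Other log2 fold changes also turned. miR-208a-3p against HGC was −0.0096 with the total of all classes as library size, and miR-499-5p 0.14 with plate as a term. miR-206-3p against HGC, 7.94 with 22 libraries, was −0.61 by group medians (Wilcoxon test and rule of log2 ratio and effect size), −0.065 with 17 libraries (also with robust dispersion), −0.061 with 40 hearts, and −0.10 with 17 by DESeq2. miR-208b-3p against VGC, 0.14 with 22, was −0.044 (total), −0.24 (group medians), −0.36 (plate), −0.11 (17, also robust, and 40 hearts), −0.14 (17, DESeq2), −0.17 (17 with pool set) and −0.071 (40 with pool set). miR-132-3p against VGC was 2.00 (DESeq2), 3.87 (group medians), 0.070 (age), 4.86 (plate), 5.77 (17, also robust), 5.73 (17, DESeq2), 1.22 (17 with pool set), 5.75 (40 hearts) and 2.36 (40 with pool set). miR-874-3p against VGC was 0.51 (group medians), 1.16 (plate), 1.24 (17, also robust), 1.21 (17, DESeq2), 0.47 (17 with pool set), 1.22 (40 hearts) and 0.60 (40 with pool set). With the pool set in the 17 libraries miR-7075-3p was −4.39 against HGC and −4.35 against VGC, where FL 17 at 0 carries the value, and Gm22122 was −0.34 against VGC.

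Each library was also left out in turn. With 22 libraries the calls stayed at 0 except for 0 to 1 snRNA against VGC and 0 to 5 piRNAs against HGC. With 17 the calls were 1 to 9 miRNAs against HGC (9 without HGC 12) and 1 to 3 against VGC, 0 to 9 piRNAs against HGC (9 without HGC 5) and 0 to 2 against VGC, 0 to 1 and 1 to 3 snRNAs, 0 to 1 and 0 to 3 snoRNAs, 0 to 1 and 0 to 10 tRNAs and 0 to 3 rRNAs (VGC). The difference between collections had 0 to 25 calls. Over both sets of libraries, in percentage points, the miRNA share ranged from −4.29 to 0.551 against HGC and −1.19 to 1.63 against VGC, tRNA from −6.92 to 2.46 and −5.67 to 2.58, rRNA from −1.51 to 5.03 and −3.18 to 3.44, snoRNA from −2.06 to 1.86 against HGC, piRNA from −0.320 to 0.111 against VGC and lncRNA from 6.42 to 11.0 against HGC, which passed its adjusted threshold without FL 13 alone (adjusted p = 0.0303, exact permutation test). Log2 fold changes against VGC ranged from −0.22 to 0.32 for miR-208b-3p, −1.36 to 6.05 for miR-132-3p and −0.43 to 1.35 for miR-874-3p. Against HGC they ranged from −0.65 to 8.32 for miR-206-3p and −1.56 to 0.031 for miR-451a. Of the other alternatives, 493 of 625 log2 fold changes, 209 of 261 counts and 39 of 54 shares kept their direction and their side of the threshold or, for counts, their size.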
